A study of Mus musculus with 36 samples.

Results

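The genes described are 8 genes of recombination repair and of the DNA damage checkpoint, Brca1, Brca2, Chek1, Chek2, Atm, Atr, Fancd2 and Lig1, set beside Mki67, which encodes the Ki-67 protein of dividing cells. They were taken by symbol from 19938 genes measured in mouse lung. Each of the 8 had 1 probe set on the array, namely 10391461 for Brca1, 10527801 for Brca2, 10592201 for Chek1, 10524266 for Chek2, 10593526 for Atm, 10587892 for Atr, 10540738 for Fancd2 and 10550102 for Lig1, with 10568714 for Mki67. A filter on dim genes kept 14953 genes for testing, and 5 of the 8 passed it. Brca1, Chek1 and Fancd2, with mean levels of 7.41, 7.33 and 7.35 on the log2 scale, lay below the filter's 7.54 and were tested only in a fit without the filter.

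RNA extracted from lungs of the mouse strains A/J and C3H was hybridised to Affymetrix Mouse Gene 1.0 ST arrays. Treated mice received NNK, a nitrosamine carcinogen of tobacco whose metabolites alkylate DNA, in 4 weekly injections of 100 mg/kg. The 8 NNK groups were A/J and C3H lungs at weeks 3, 6, 9 and 12, and the 10 untreated groups were A/J and C3H lungs at weeks 0, 3, 6, 9 and 12. Each of the 18 groups had 2 arrays, 36 in all, and lungs were taken before mature tumours had formed. Neither the age nor the sex of the mice is given in the labels. Whether both arrays of a group stem from different animals is not stated either, so the p-values cover array-to-array spread that may be technical. A/J is known as susceptible and C3H as more resistant to lung tumours after such carcinogens.

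A DNA break or a stalled replication fork is sensed by the kinases ATM and ATR, which activate the kinases CHK2 and CHK1, and these hold the cell cycle while the damage is repaired. BRCA1 and BRCA2 act in homologous recombination, FANCD2 is the central protein of the Fanconi anaemia pathway for crosslinks and stalled forks, and LIG1 is the DNA ligase that joins Okazaki fragments and seals repair patches. Recombination uses the sister chromatid as its template, and many of these genes are transcribed mainly in cells that replicate their DNA. In a lung, where few cells divide, a higher level of such a gene can therefore go with more dividing cells, and Mki67 was measured beside each gene for this reason. In whole lung, more or fewer cells of a type and more or less RNA per cell cannot be told apart.

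The lung markers Sftpc, Sftpb, Scgb1a1, Ager, Cdh5 and Foxj1 were all above the filter, with summed intensities between 57287 and 64227 over the 36 arrays. A few A/J arrays stood apart. For the genes described and Mki67, the NNK change in A/J is also given without week 6 in A/J, and for some also without single arrays. The single genes and medians of the pathway, mitosis and p53 lists are given only with all these arrays. So are the genes most like each gene described and the comparison of the strains at equal Mki67. The array A/J NNK week 6 array 1 had the highest Mki67 level of the series, 10.50, and a summed intensity of 19 mitosis genes of 12836. Its 6 neutrophil and neutrophil precursor markers summed to 4190, against 1109 to 1417 in the remaining NNK arrays of A/J and 930 to 1806 in its untreated arrays. Its 3 measured red cell precursor markers summed to 6933, against 1571 to 3459 in those NNK arrays and 2153 to 4085 in the untreated ones. Its 3 measured B cell markers summed to 930, against 2013 to 2628 in those NNK arrays and 2036 to 2917 in the untreated ones. The untreated A/J arrays of week 6 held skin genes, with 5 markers (Lor, Krt1, Krt10, Hrnr and Ivl) summing to 37178 and 52709, and untreated A/J week 0 array 2 had 14303. In the other A/J arrays, NNK and untreated, the skin sum lay between 1175 and 1674. In C3H, NNK week 3 arrays 1 and 2 had the highest neutrophil sums, 1706 and 1461, against 1055 to 1343 in the other C3H arrays. They also had the highest Mki67 levels of C3H, 9.63 and 9.67, and array 1 had the lowest lung sum of the series, 57287. No measured marker of these lists was listed at 0, and the part of these cells in the results was not tested.

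Stretches upstream of Brca2, Chek2, Lig1 and Atr are shown with that of Mki67 because the genes Brca2, Chek2 and Lig1 rose with NNK in A/J and followed Mki67, and Atr passed neither test. They are RefSeq windows of assembly GRCm38.p6, which may not be the build behind the arrays. Windows of 7 of the 8 genes, all but Fancd2, were used. All 250 bases before each start were searched, both strands, for the letters GCGGGAA and GCGCGAA (E2F-type sites of genes induced at replication), CCAAT (the box bound by NF-Y) and TTTGAA and TTCGAA (the cell cycle homology region, CHR, of late cell cycle genes). Each stretch shown is the 110 bases with the most matched letters among the 250, the one nearest the start among equals. A further CCAAT of Chek2, 26 to 22 bases before its start, lies outside its stretch. Capitals mark the matches, and ATTGG is CCAAT read on the other strand.
Brca2, chr5:150522453-150522562, + strand: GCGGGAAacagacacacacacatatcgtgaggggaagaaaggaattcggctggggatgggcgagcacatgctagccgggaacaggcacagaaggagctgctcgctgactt
Chek2, chr5:110839797-110839906, + strand: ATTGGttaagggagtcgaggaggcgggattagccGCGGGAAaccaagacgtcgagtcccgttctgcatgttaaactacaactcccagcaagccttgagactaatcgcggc
Lig1 window 1, chr7:13277065-13277174, + strand: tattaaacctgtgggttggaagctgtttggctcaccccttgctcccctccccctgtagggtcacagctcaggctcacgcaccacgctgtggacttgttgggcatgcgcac
Lig1 window 2, chr7:13278716-13278825, + strand: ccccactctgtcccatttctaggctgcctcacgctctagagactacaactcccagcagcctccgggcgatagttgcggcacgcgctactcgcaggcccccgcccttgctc
Lig1 window 3, chr7:13279155-13279264, + strand: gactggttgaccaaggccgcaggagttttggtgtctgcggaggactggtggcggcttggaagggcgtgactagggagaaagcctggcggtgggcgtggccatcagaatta
Atr, chr9:95857382-95857491, + strand: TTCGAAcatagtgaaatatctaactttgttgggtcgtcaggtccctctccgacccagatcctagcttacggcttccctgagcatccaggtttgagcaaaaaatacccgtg
Mki67, chr7:135716458-135716567, - strand: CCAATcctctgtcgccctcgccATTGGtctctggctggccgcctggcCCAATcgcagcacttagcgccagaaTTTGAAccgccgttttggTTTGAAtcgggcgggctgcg

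Brca2 and Chek2 held the letters GCGGGAA, from 168 to 162 and from 152 to 146 bases before their starts, as did 3.82% of all 32851 windows. Chek2 also had CCAAT at 2 places, Brca1 and Atm at 1 place each and Mki67 at 3 places, against 33.8% of all windows with at least 1. Mki67 held TTTGAA at 2 places, against 16% of windows, and Atr held TTCGAA, which is its own reverse complement, against 1.34%. Neither the Chek1 window nor any of the 3 windows of Lig1 held one of these letters, and GCGCGAA, found in 1.28% of windows, was in none of the windows of these 7 genes. These matches are descriptions of the letters only.

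Brca2, Chek2 and Lig1 rose with NNK in A/J lungs over weeks 3 to 12, and the kinase genes Atm and Atr did not pass the test. The 3 called genes stood against 10.0% of all 14953 tested genes called in this comparison, in either direction. All 8 members had a higher mean in NNK-treated A/J lungs, with a median difference of 0.19, beside a median of 0.0039 over all 19938 genes. How many of all genes had a higher mean was not counted. Without week 6 in A/J, a setting chosen after seeing the data, the difference over the other weeks was -0.06 for Atm. It was 0.07 for Atr, 0.08 for Chek1, 0.13 for Fancd2, 0.15 for Lig1, 0.18 for Brca1, 0.21 for Chek2 and 0.25 for Brca2. Changes are NNK-treated minus untreated on the scale log2(intensity + 16), averaged over the 4 weeks, which understates changes of dim genes.

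Among the recombination genes, Brca2 had a lowest, median and highest level of 7.50, 7.76 and 8.22 in NNK-treated A/J lungs, against 7.13, 7.39 and 7.66 in untreated A/J lungs of the same weeks. Of the 8 NNK arrays 5 lay above the highest untreated array, and all 8 above the untreated median. Brca2 averaged 7.78 ± 0.24 in NNK-treated and 7.41 ± 0.17 in untreated lungs (SD, n = 8 arrays each), and rose by 0.37 ± 0.07 (SE, adjusted p = 0.00248). Its untreated A/J mean lay below the filter's 7.54, and in the fit without the filter Brca2 passed as well (adjusted p = 0.00392).

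Brca1, whose protein directs breaks towards recombination and also acts at the checkpoint, ranged over 7.34, 7.53 and 7.95 with NNK, against 7.22, 7.35 and 7.48 untreated (lowest, median, highest). Here too 5 of 8 NNK arrays lay above every untreated array of weeks 3 to 12. Its difference was 0.22 ± 0.07 and did not pass without the filter (adjusted p = 0.0648), where 6.78% of 19938 genes were called. Fancd2 had 7.19, 7.40 and 7.74 with NNK and 6.97, 7.24 and 7.51 untreated, and differed by 0.17 ± 0.08 (adjusted p = 0.171). Without A/J NNK week 6 array 1 the differences were 0.14 for Brca1 and 0.11 for Fancd2 (adjusted p = 0.171 and 0.395).

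Of the checkpoint kinases, Chek2 had 7.45, 7.50 and 7.91 in NNK-treated A/J lungs, against 6.99, 7.24 and 7.64 in untreated ones. The groups overlapped through 1 untreated array, week 3 array 2 at 7.64, above which lay 2 of the 8 NNK arrays. Chek2 averaged 7.59 ± 0.17 with NNK and 7.26 ± 0.21 untreated and rose by 0.33 ± 0.07 (adjusted p = 0.00379). Its untreated A/J mean also lay below the filter's 7.54, and in the fit without the filter Chek2 passed as well (adjusted p = 0.00594). Chek1 had 7.11, 7.49 and 7.85 with NNK and 7.09, 7.25 and 7.49 untreated, a difference of 0.18 ± 0.07 that did not pass (adjusted p = 0.110, without the filter).

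The genes of the sensing kinases did not pass. Atm, with 8.88, 9.06 and 9.26 in NNK-treated and 8.84, 9.08 and 9.20 in untreated A/J lungs, differed by 0.01 ± 0.05 (adjusted p = 0.920). Atr, with 8.69, 9.03 and 9.08 with NNK and 8.69, 8.91 and 9.03 untreated, differed by 0.09 ± 0.05 (adjusted p = 0.219). Although 5 of 8 Atr arrays with NNK lay above every untreated array of the same weeks, the NNK arrays of week 12 were among the lowest of A/J, at 8.69 and 8.79.

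Lig1 had 8.66, 8.71 and 9.07 in NNK-treated A/J lungs, against 8.35, 8.53 and 8.84 in untreated A/J lungs. The highest value came from A/J NNK week 6 array 1, and the NNK range lay inside the upper part of the untreated range apart from that array. Lig1 averaged 8.76 ± 0.14 with NNK and 8.55 ± 0.16 untreated and rose by 0.21 ± 0.06 (adjusted p = 0.0339). With each of the 36 arrays dropped in turn, this call held 26 times, and it was lost with adjusted p up to 0.103, the value without A/J NNK week 6 array 1. The other 9 arrays whose absence ended it were A/J arrays, namely untreated week 3 array 1, week 6 array 1, week 9 array 1 and week 12 array 2, and NNK week 3 arrays 1 and 2, week 9 array 1 and week 12 arrays 1 and 2. Brca2 and Chek2 passed all 36 times.

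Mki67 itself had 8.74, 9.17 and 10.50 in NNK-treated A/J lungs, against 8.71, 8.92 and 9.37 in untreated A/J lungs, and its difference of 0.37 ± 0.15 did not pass (adjusted p = 0.105). It passed 1 of 36 times, without A/J NNK week 6 array 2, where the difference was 0.55 (adjusted p = 0.00177). Without array 1 of that group it was 0.19 (adjusted p = 0.289).

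**Figure D1:**
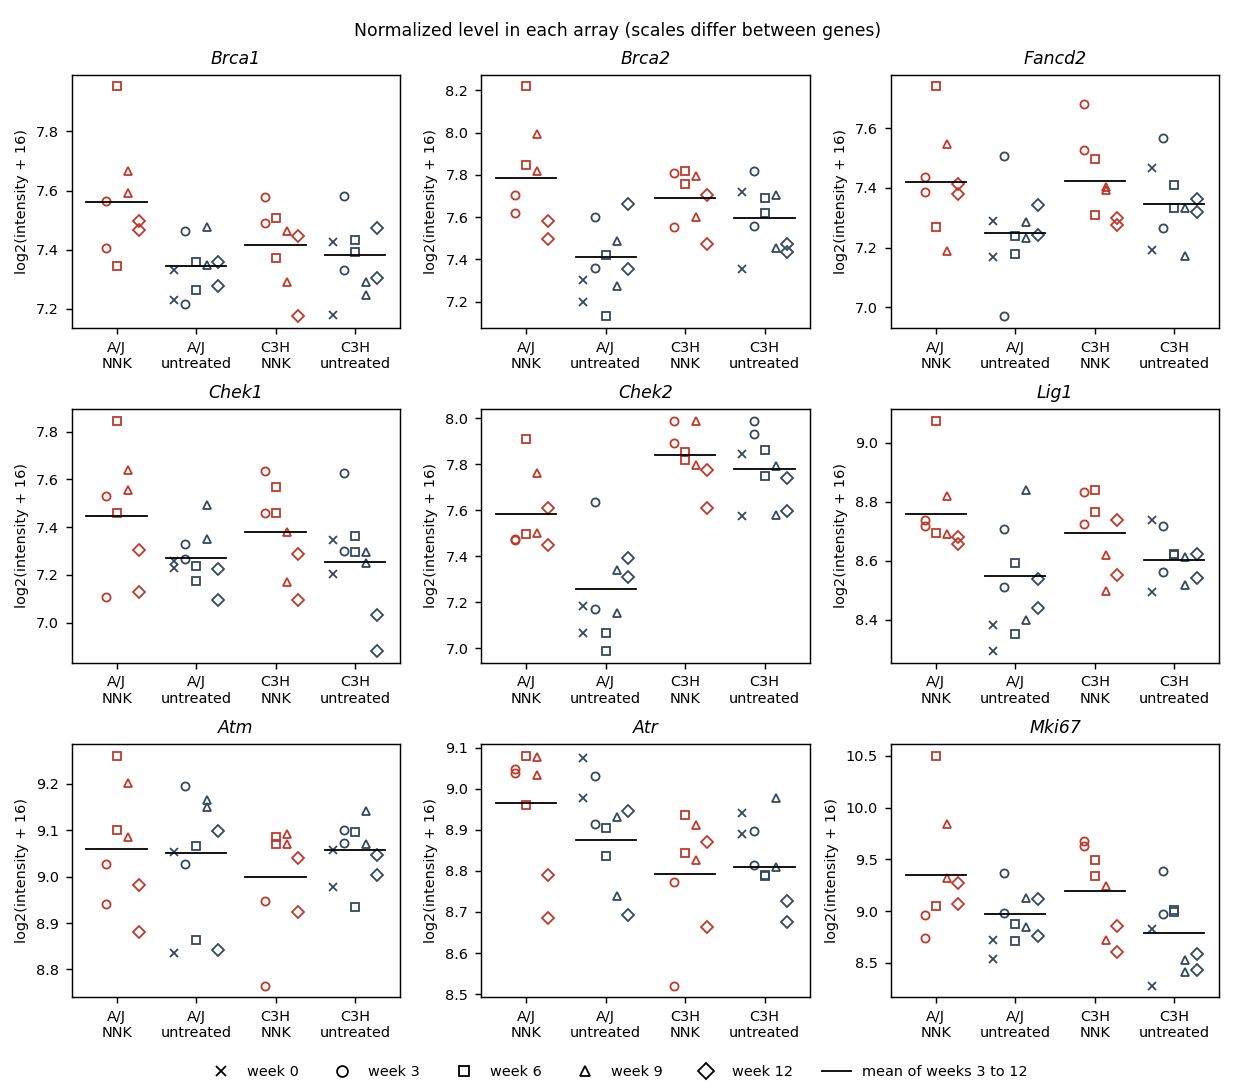
Normalized log2(intensity + 16) of the 8 genes and Mki67 in each array, grouped from left to right as A/J NNK, A/J untreated, C3H NNK and C3H untreated, with the symbol giving the week and the line the mean of weeks 3 to 12. In A/J the Brca2 mean was 7.78 with NNK and 7.41 untreated, and the Chek2 levels of C3H lay above nearly all untreated A/J arrays.

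The A/J differences were not spread evenly over the weeks. At week 6 Brca2, Chek2, Lig1 and Mki67 rose, and at weeks 3, 9 and 12 no member passed. The share of all tested genes called was 0.354% at week 3, 7.27% at week 6, 1.54% at week 9 and 0.0736% at week 12, so week 6 was also the week with the most calls in all. Of the genes called at week 6, 60.0% were higher with NNK, and on the deposited scale without quantile normalization 39.6% were, with Brca2, Chek2 and Lig1 called on either scale. At week 12 the 11 calls were all higher with NNK, and on the deposited scale 15 were higher and 2 lower.

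Brca2 measured 8.22 and 7.85 in the NNK arrays of week 6, against 7.13 and 7.42 in the untreated arrays, a difference of 0.76 ± 0.15 (adjusted p = 0.00498). At week 3 it measured 7.70 and 7.62 with NNK and 7.36 and 7.60 untreated, and at week 9 7.99 and 7.82 with NNK and 7.28 and 7.49 untreated. These differences were 0.18 and 0.52 (adjusted p = 0.668 and 0.0685). In each of these 3 weeks both NNK arrays lay above both untreated arrays, and at week 12, with 7.58 and 7.50 with NNK and 7.66 and 7.35 untreated, the arrays interleaved.

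Chek2 measured 7.91 and 7.50 with NNK at week 6, against 6.99 and 7.07 untreated, a difference of 0.68 ± 0.14 (adjusted p = 0.00676). At week 9 it had 7.76 and 7.50 with NNK and 7.16 and 7.34 untreated (difference 0.39, adjusted p = 0.135), and at week 12 7.45 and 7.61 with NNK and 7.39 and 7.31 untreated (difference 0.18). Its NNK arrays lay above both untreated arrays at weeks 6, 9 and 12, and at week 3 the untreated arrays, 7.17 and 7.64, spanned those with NNK.

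Lig1 had 9.07 and 8.70 with NNK at week 6, against 8.35 and 8.59 untreated (difference 0.41 ± 0.13, adjusted p = 0.0463). Mki67 had 10.50 and 9.05 with NNK, against 8.71 and 8.87 untreated (difference 0.98 ± 0.29, adjusted p = 0.0429). The 3 dim genes also differed most at week 6, Chek1 by 0.45, Brca1 by 0.34 and Fancd2 by 0.30, without passing (adjusted p between 0.0544 and 0.252 without the filter).

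At the same differences, the week 6 call of Lig1 was lost without the filter, with array weights and on the A/J arrays alone (adjusted p = 0.0612, 0.0607 and 0.143). That of Mki67 was lost in these settings (adjusted p = 0.0570, 0.0658 and 0.135), with the 50th percentile filter (0.0524) and with trended robust variances (0.0653), and that of Chek2 on the A/J arrays alone (0.0529).

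All calls of week 6 rested on these 4 arrays. Without A/J NNK week 6 array 1, Brca2 differed by 0.57 (adjusted p = 0.0758), Chek2 by 0.47 (0.0964), Lig1 by 0.22 (0.399) and Mki67 by 0.26 (0.608). Without untreated A/J week 6 array 1, Brca2 differed by 0.61 (adjusted p = 0.125), Chek2 by 0.64 (0.0935), Lig1 by 0.29 (0.395) and Mki67 by 0.90 (0.272). With each array of the series dropped in turn, the week 6 call held 34 of 36 times for Brca2 and for Chek2, 14 times for Lig1 and 25 times for Mki67. Without A/J NNK week 6 array 2 the differences were 0.94 for Brca2 and 0.88 for Chek2. When an array outside week 6 in A/J was dropped, the differences stayed at 0.41 and 0.98 and the lost calls had adjusted p of at most 0.0563 for Lig1 and 0.0518 for Mki67. Without untreated A/J week 6 array 2 Mki67 differed by 1.06 (adjusted p = 0.0819). The untreated arrays of that week are those with the skin genes, and array 1 with NNK is that with the neutrophil and red cell precursor values. Without week 6 in A/J, a setting chosen after seeing the data, the NNK change over the other weeks was 0.25 for Brca2, 0.21 for Chek2 and 0.15 for Lig1, and none passed (adjusted p = 0.0742, 0.103 and 0.199).

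**Figure D2:**
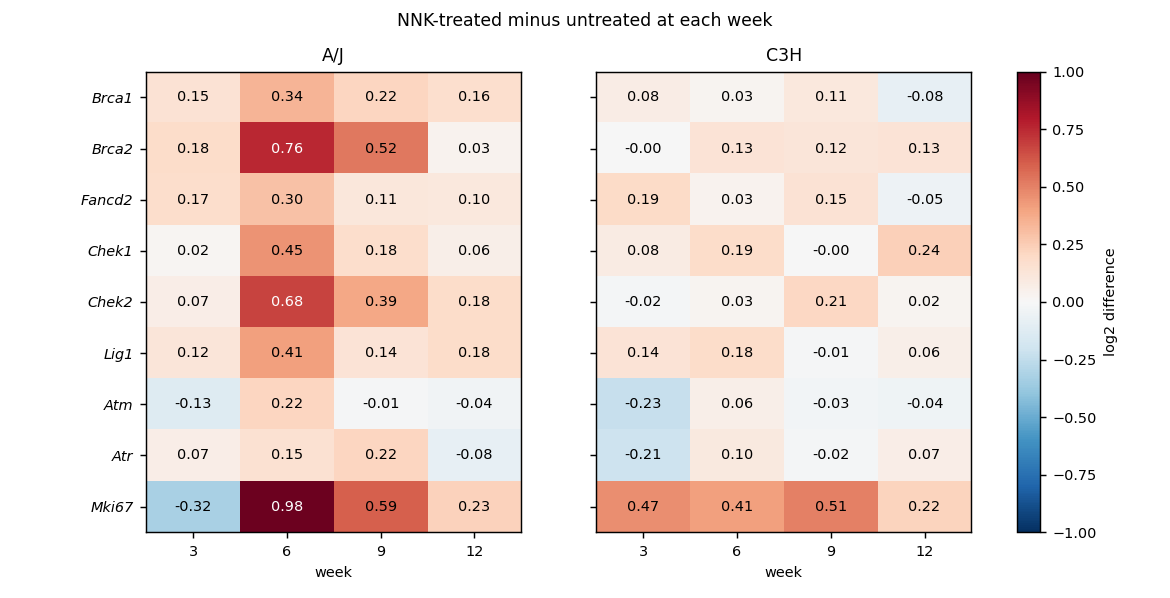
NNK-treated minus untreated difference in mean log2(intensity + 16) at weeks 3, 6, 9 and 12 for each gene, in A/J on the left and C3H on the right, with 2 arrays per group and week. The largest A/J differences of the 8 genes were those of Brca2 and Chek2 at week 6, 0.76 and 0.68, and in C3H Mki67 was higher by 0.22 to 0.51 at every week.

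In C3H lungs no member passed for the NNK change, where 0.0803% of all tested genes were called, 12 in number. Brca2 had 7.47, 7.73 and 7.82 in NNK-treated C3H lungs, against 7.44, 7.59 and 7.82 in untreated C3H lungs (lowest, median, highest), a difference of 0.10 ± 0.07 (adjusted p = 0.901). Chek2 had 7.61, 7.84 and 7.99 with NNK and 7.58, 7.77 and 7.99 untreated, a difference of 0.06 ± 0.07 (adjusted p = 0.929). Lig1 had 8.50, 8.73 and 8.84 with NNK and 8.52, 8.62 and 8.72 untreated, a difference of 0.09 ± 0.06 (adjusted p = 0.878). For Brca2 and Chek2 the NNK and untreated ranges overlapped over most of their length, with 1 and 0 of 8 NNK arrays above every untreated array of the same weeks. For Lig1 5 of 8 NNK arrays lay above every such untreated array, and the lowest NNK array lay below all of them.

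The remaining C3H differences were 0.03 for Brca1, 0.08 for Fancd2, 0.13 for Chek1, -0.06 for Atm and -0.02 for Atr, none of which passed. The lowest Atm and Atr levels of C3H came from NNK week 3 array 1, at 8.76 and 8.52, in the week with their largest differences, -0.23 and -0.21 (adjusted p = 0.270 and 0.307). By week, 0.0936% of genes were called in C3H at week 3, 0.0134% at week 6, 0% at week 9 and 0% at week 12. Of the week 3 calls in C3H, 28.6% were higher with NNK, and 42.9% on the deposited scale. At weeks 9 and 12, where limma called 0 genes, 281 and 182 genes had an unadjusted p under 0.05.

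Mki67 differed by 0.40 in C3H, beside 0.37 in A/J. It had 8.60, 9.29 and 9.67 in NNK-treated C3H lungs, against 8.41, 8.78 and 9.39 in untreated C3H lungs, with an SE of 0.15 (adjusted p = 0.640, unadjusted p = 0.0113). Without A/J NNK week 6 array 1 the A/J difference was 0.19, and without week 6 in A/J it was 0.17. Both NNK arrays lay above both untreated arrays in 4 of 4 weeks for Mki67 in C3H, and in 2 of 4 weeks in A/J.

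The NNK change of no member passed the test of a difference between the strains, in which 1.13% of genes were called. Brca2 changed by 0.28 ± 0.10 more in A/J than in C3H (adjusted p = 0.161) and Chek2 by 0.27 ± 0.10 more (adjusted p = 0.152). Lig1 differed by 0.12 ± 0.09, Atr by 0.11 ± 0.07 and Atm by 0.07 ± 0.07, and Mki67 by -0.03 ± 0.21 (adjusted p = 0.951). Without untreated A/J week 3 array 2 the Chek2 difference was 0.33 and passed (adjusted p = 0.0303). Without A/J NNK week 6 array 1 the differences were 0.23 for Brca2, 0.22 for Chek2 and -0.21 for Mki67, and without week 6 in A/J 0.15 for Brca2, 0.15 for Chek2 and -0.23 for Mki67, none of which passed. The A/J and C3H changes share no arrays.

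Untreated lungs of the strains differed most in Chek2. It was lower in A/J by 0.54 ± 0.06 over weeks 0 to 12 (adjusted p = 1.30e-07), with a lowest, median and highest level of 6.99, 7.18 and 7.64 in untreated A/J lungs, against 7.57, 7.77 and 7.99 in untreated C3H lungs. Untreated A/J levels of Chek2 and Brca2, with means of 7.23 and 7.38, lay below the filter's 7.54 and those of untreated C3H, 7.77 and 7.58, above it, so both genes were kept for testing by their means over all 36 arrays. Without the filter the adjusted p was 2.87e-07 for Chek2 and 0.0148 for Brca2. Only untreated A/J week 3 array 2 lay above the lowest C3H array. The median of the NNK-treated A/J arrays, 7.50, lay between the medians of the untreated groups, and the highest of them, 7.91, lay inside the untreated C3H range. Chek2 was read by 1 probe set, and whether the strains differ in sequence under its probes was not tested.

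Brca2 was also lower in untreated A/J, with 7.13, 7.36 and 7.66, than in untreated C3H, with 7.36, 7.59 and 7.82, by 0.20 ± 0.07 (adjusted p = 0.0115). Without week 6 in A/J this was 0.16 and did not pass (adjusted p = 0.0537). That setting keeps the untreated A/J week 0 array with skin genes. Without week 6 and that array, A/J minus C3H was -0.15 for Brca2. The other members did not pass, with differences of -0.10 for Lig1 and Fancd2, -0.03 for Brca1, 0.01 for Chek1, -0.02 for Atm and 0.07 for Atr. Lig1 passed without untreated A/J week 9 array 2, at -0.14 (adjusted p = 0.0210), had -0.06 without array 1 of that group, and Atr passed without untreated A/J week 12 array 2, at 0.10 (adjusted p = 0.0453). These 2 calls among 5 tested members stood against 56.1% of all genes called in this comparison, and these untreated arrays are the same that the NNK changes use.

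Over the 12 weeks of untreated lungs no member passed for a linear trend, with 22.8% of genes called in A/J and 0.863% in C3H. In A/J, Atr missed the threshold with a change of -0.22 ± 0.08 over 12 weeks (adjusted p = 0.0597), and on the deposited scale, where the calls in A/J split 40.6% higher in place of 76.9%, it passed with -0.30 (adjusted p = 0.0375). Without untreated A/J week 12 array 2 the change was -0.12 (adjusted p = 0.411), and without array 1 of that group -0.32 (adjusted p = 0.0207). Its untreated A/J levels were 9.07 and 8.98 at week 0 and 8.94 and 8.69 at week 12. In C3H the largest trend was that of Chek1, -0.33 (adjusted p = 0.250 without the filter), with 7.20 and 7.34 at week 0 and 7.03 and 6.88 at week 12.

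The question of how far the genes followed cell division was put to the arrays in 3 ways. Between the 2 arrays of each group, which share strain, treatment and week, all 3 genes called with NNK in A/J had a positive slope on Mki67. The slopes were 0.34 ± 0.08 for Brca2, 0.34 ± 0.07 for Chek2 and 0.31 ± 0.07 for Lig1, in log2 units per log2 unit of Mki67 (adjusted p = 0.0386, 0.00986 and 0.0132), with 1.54% of 14952 genes called. Atm and Atr had slopes of -0.04 ± 0.07 and -0.09 ± 0.07 (adjusted p = 0.827 and 0.571). In the fit without the filter, where 1.19% of genes were called, the dim genes passed as well, Brca1 with 0.37 (adjusted p = 0.00351), Fancd2 with 0.38 (0.00927) and Chek1 with 0.31 (0.0281), and Brca2 just missed (adjusted p = 0.0520). On the deposited scale the slope was 0.25 for Brca2 and 0.25 for Chek2, and neither passed (adjusted p = 0.115 and 0.0584). On the arrays of A/J alone the slopes of Brca2, Chek2 and Lig1 were 0.26, 0.33 and 0.28 (adjusted p from 0.293 to 0.469), and on those of C3H alone 0.60, 0.40 and 0.40 (adjusted p from 0.0702 to 0.162), so that none passed within a strain.

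By count of groups, the array with more Mki67 also had more Brca2, Chek1 and Lig1 in 15 of 18 groups each, more Fancd2 in 14, more Chek2 in 13 and more Brca1 in 12. For Atm this held in 11 groups, close to the 12 of Brca1, and for Atr in 7. Such counts were not made over all tested genes, so how many genes reach them is not known. The largest gap in Mki67 between arrays of a group was that of A/J NNK week 6, where array 1 exceeded array 2 by 1.45 in Mki67, 0.61 in Brca1, 0.47 in Fancd2, 0.41 in Chek2, 0.39 in Chek1, 0.38 in Lig1 and 0.37 in Brca2, while array 1 minus array 2 was -0.16 for Atm and -0.12 for Atr. Larger gaps, also as array 1 minus array 2, were found for Fancd2 (-0.54) and Chek2 (-0.46) in untreated A/J week 3, for Chek1 (0.43) in A/J NNK week 3 and for Lig1 (-0.44) in untreated A/J week 9. A/J NNK week 6 array 1 also had the neutrophil, red cell precursor and B cell values given above.

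Leaving out either array of A/J NNK week 6 ended all calls of the slopes, since the remaining array then carries no difference within its group. Without it the slopes of the 6 genes were 0.30 to 0.45, with adjusted p from 0.117 to 0.268 without the filter. The Brca2 slope lost its call with other arrays dropped too and passed 16 of 36 times in all.

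Across all 18 arrays of a strain, 12 of 16 correlations with Mki67 had an adjusted permutation p under 0.05, and those of Atm and Atr did not in either strain. Such correlations were not computed over all tested genes, so the share of genes that would pass is not known. The permutations did not keep the arrays of a group together. In A/J, Pearson's r was 0.84 for Brca1, 0.81 for Chek2, 0.80 for Brca2, 0.79 for Lig1, 0.78 for Chek1 and 0.72 for Fancd2, with adjusted permutation p from 0.00016 to 0.00153. Spearman's rho was 0.65 for Brca1, 0.77 for Chek2, 0.64 for Brca2, 0.70 for Lig1, 0.60 for Chek1 and 0.52 for Fancd2 (adjusted permutation p from 0.00108 to 0.0362). The A/J values for Atm and Atr were r = 0.32 and -0.04 and rho = 0.43 and -0.17 (adjusted permutation p from 0.096 to 0.868).

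In C3H r was 0.84 for Chek1, 0.81 for Chek2, 0.80 for Lig1, 0.78 for Fancd2, 0.77 for Brca1 and 0.74 for Brca2, with adjusted permutation p from 0.00016 to 0.00103. Spearman's rho was 0.87 for Chek1, 0.81 for Chek2, 0.76 for Lig1, 0.70 for Fancd2, 0.76 for Brca1 and 0.74 for Brca2 (adjusted permutation p from 0.00048 to 0.00304). Atm and Atr had r = -0.25 and -0.15 and rho = 0.02 and -0.08 in C3H.

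These arrays share treatment and week as well as Mki67. In A/J the 2 arrays farthest from the median of Mki67 were NNK week 6 array 1 and NNK week 9 array 1, at 10.50 and 9.84. Without them r was 0.67 for Chek2 and 0.62 for Lig1 (adjusted permutation p = 0.0114 and 0.0202). It was 0.53 for Brca2, 0.48 for Brca1, 0.42 for Chek1 and 0.29 for Fancd2, and these 4 no longer passed. Leaving out these 2 arrays also narrows the range of Mki67. By rho over all A/J arrays these 4 genes passed, so how far their relations rest on the 2 arrays is not settled. In C3H, without NNK week 3 arrays 1 and 2, all 6 passed with r between 0.67 and 0.86.

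Marker lists of lung and other cells were set against Mki67 too, in 14 relations of 7 lists and both strains. These were computed in the same way on mean log2 levels and added after seeing the data. In A/J some lists passed by r or by rho, and none by both. Over the 18 A/J arrays neutrophil markers had r = 0.79 and rho = 0.52 (adjusted permutation p = 0.0305 and 0.13). Red cell precursor markers had r = 0.67 and rho = 0.42 (adjusted permutation p = 0.0349 and 0.195), and B cell markers r = -0.66 and rho = -0.16 (0.138 and 0.678). Thymus markers had r = 0.49 and rho = 0.80 (adjusted permutation p = 0.157 and 0.0021), and T cell markers r = 0.46 and rho = 0.63 (0.165 and 0.0465). Lung markers had r = 0.36 and rho = 0.44, skin markers r = -0.30 and rho = -0.385, and neither list passed. Without the 2 farthest arrays r was 0.56 for neutrophil, 0.31 for red cell precursor, -0.0859 for B cell, 0.67 for thymus and 0.63 for T cell markers, and none passed (adjusted permutation p from 0.0511 to 0.927). In C3H no list passed, with neutrophil markers at r = 0.33 and thymus markers at r = -0.20. The part of these cells in the members' relations was not tested.

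**Figure D3:**
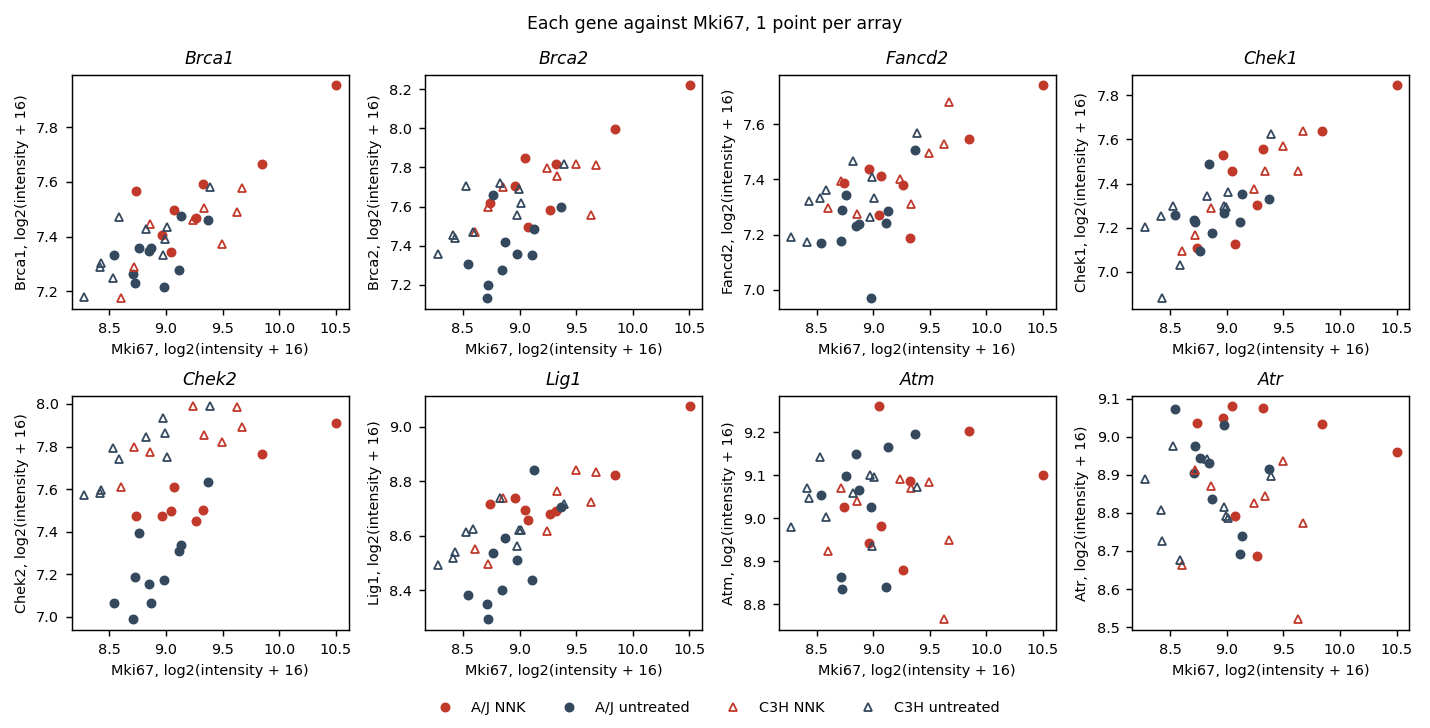
Level of each of the 8 genes against the level of Mki67, both as log2(intensity + 16), with 1 point per array, filled circles for A/J, open triangles for C3H, red for NNK and dark blue for untreated. Brca1, Brca2, Fancd2, Chek1, Chek2 and Lig1 lay higher in arrays of high Mki67 within each strain, with r from 0.72 to 0.84, and Atm and Atr did not, with r from -0.25 to 0.32.

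With the level of Mki67 in the model, the NNK change in A/J kept its call for Brca2 and Chek2 and lost it for Lig1, while 3.71% of 14952 genes were called. At equal Mki67 the change was 0.25 ± 0.06 for Brca2 (adjusted p = 0.0311) and 0.20 ± 0.05 for Chek2 (adjusted p = 0.0420), against 0.37 and 0.33 without Mki67 in the model. Lig1 had 0.10 ± 0.05 (adjusted p = 0.314), Atr 0.12 ± 0.05 (0.209) and Atm 0.02 ± 0.05 (0.853). The dim genes had 0.08 for Brca1, 0.06 for Chek1 and 0.03 for Fancd2 in the fit without the filter, with 2.50% of genes called there.

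Both of these calls were close to the threshold. Without the filter, which Chek2 and Brca2 pass by a small margin, Brca2 passed (adjusted p = 0.0441) and Chek2 did not (adjusted p = 0.0587). With each array dropped in turn, Brca2 passed 29 and Chek2 22 of 36 times, with the highest adjusted p, 0.471 and 0.491, without A/J NNK week 6 array 2. Brca2 was also lost without untreated A/J week 6 array 1 or week 12 array 2, and without NNK week 3 array 2, week 9 array 2 or week 12 array 1 or 2 (adjusted p from 0.0521 to 0.120). Chek2 was lost without the same arrays other than NNK week 12 array 1, and without untreated A/J week 6 array 2, week 9 arrays 1 and 2, NNK week 9 array 1, and untreated C3H week 3 or NNK week 6 arrays (adjusted p from 0.0513 to 0.146). With the mean of the mitosis genes in place of Mki67, Brca2 passed and Chek2 had 0.17 (adjusted p = 0.0626). Without week 6 in A/J neither passed, with 0.18 for Brca2 and 0.14 for Chek2 (adjusted p = 0.162 and 0.214).

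In C3H no member passed at equal Mki67, with values from -0.12 for Brca1 to 0.02 for Atr, and 0.0736% of genes were called. The A/J change exceeded that of C3H at equal Mki67, a comparison added after seeing the data with 1.71% of genes called, by 0.28 ± 0.07 for Chek2 (adjusted p = 0.0430) and by 0.29 ± 0.08 for Brca2 (adjusted p = 0.0624). The other members differed by 0.06 to 0.19 and did not pass. This comparison was not refitted with arrays left out. Its model gives both strains 1 slope on Mki67, while the Brca2 slopes on each strain's own arrays were 0.26 in A/J and 0.60 in C3H. Those of Chek2 were 0.33 in A/J and 0.40 in C3H.

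**Figure D4:**
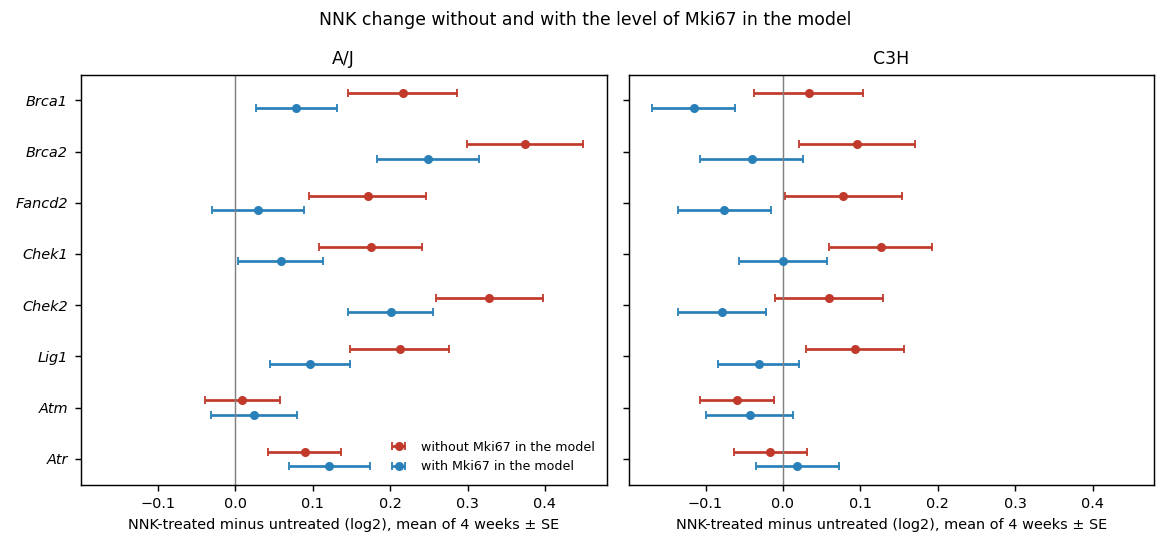
NNK-treated minus untreated difference on the log2 scale, mean of 4 weeks with its SE from the fit without the filter, for each gene in A/J (left) and C3H (right), without Mki67 in the model (red) and with it (blue). In A/J Brca2 had 0.37 without and 0.25 with Mki67 in the model, and in C3H the 6 genes that followed Mki67 had values from -0.12 to 0.00 with it.

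Of all tested genes, those whose 18 group means ran most like a member's were named by Pearson's r, as a description. For Brca1 these were Clspn (r = 0.93), Birc5 (0.90) and H2ax (0.90), with Mki67 in rank 19. For Chek1 they were Kif15 (0.92), Hat1 (0.91) and Arhgap11a (0.89), with Mki67 in rank 15, and for Fancd2 Melk (0.89), Rrm2 (0.88) and Asf1b (0.88), with Mki67 in rank 201. Several of these encode replication or mitosis proteins, such as the CHK1 mediator claspin (Clspn), the kinesin Kif15 and the ribonucleotide reductase subunit Rrm2.

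Lig1 ran most like Arhgap19 (0.93), Pola2 (0.92), a subunit of DNA polymerase alpha, and Iqgap3 (0.90), with Mki67 in rank 123. Brca2 ran most like Cep76 (0.92), Tbc1d31 (0.91) and Pole (0.91), the catalytic subunit of DNA polymerase epsilon, with Mki67 in rank 243. The genes most like Chek2 were Dxo (0.95), Susd4 (0.93) and Mfap4 (0.93), with Mki67 in rank 6137 of 14952. Its group means carry the strain difference described above. Atm ran most like Mlh3 (0.93), Ebna1bp2 (0.85) and Klhl12 (0.85), and Atr like Cul5 (0.93), Slf1 (0.89) and Btbd10 (0.88), with Mki67 in ranks 4797 and 5475.

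The other genes of these pathways are given by list, and each count stands against the shares of all tested genes called, in either direction, which were 10.0% for the NNK change in A/J, 0.0803% for that in C3H, 1.54% for the slope on Mki67 and 3.71% for the A/J change at equal Mki67. Of 28 measured genes of homologous recombination and break repair, 20 were tested, and 1 rose and 0 fell with NNK in A/J. It was H2ax, the histone variant phosphorylated at breaks, by 0.34 ± 0.08 (adjusted p = 0.0112), and the list's median was 0.05, beside 0.01 over all tested genes. The slope on Mki67 passed for H2ax (0.43) and for Bard1 (0.35), the partner of BRCA1, 2 of 20. Of 13 tested Fanconi anaemia genes 0 passed in A/J in limma, with a median of 0.06. The 2 with the smallest p were Fancm at 0.14 and Usp1 at 0.11 (unadjusted p = 0.0180 and 0.0262), and Ube2t alone passed for the slope (0.31).

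Of 16 tested partners of ATR, ATM and CHK1, 4 rose and 0 fell in A/J, against the 10.0% of all tested genes, with a median of 0.11. They were Tipin, of the fork protection complex, by 0.23 (adjusted p = 0.00530), the CDK1-inhibiting kinase gene Wee1 by 0.19 (0.00528), the clamp loader gene Rad17 by 0.12 (0.0407) and Clspn by 0.25 (0.0431). Tipin and Wee1 also passed at equal Mki67, with 0.24 and 0.17 (adjusted p = 0.0223 and 0.0428), 2 of 16 against 3.71%. Only Timeless passed for the slope in this list, at 0.36.

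Of 22 tested ligase and replication fork genes 5 rose and 0 fell in A/J, against the 10.0% of all tested genes, with a median of 0.15. Rfc4, of the clamp loader, rose by 0.32, Mcm4, of the replicative helicase, by 0.18, Pole by 0.37 and the primase gene Prim1 by 0.26 (adjusted p from 0.00735 to 0.0472). In this list 11 of 22 genes passed for the slope, against 1.54%, with a median of 0.31 beside 0.03 over all tested genes, and 0 passed in A/J at equal Mki67 in limma.

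Of 18 tested mitosis genes all 18 passed for the slope, with a median of 0.81, and 3 rose in A/J, namely Cdk1 by 0.65, Top2a by 0.47 and Birc5 by 0.26 (adjusted p = 0.0145, 0.0356 and 0.0481). The median NNK difference of the mitosis list was 0.35 in A/J and 0.37 in C3H. In C3H 0 genes of these 5 lists passed in limma, with list medians of -0.0013 for recombination, 0.01 for the Fanconi genes, 0.02 for the checkpoint partners and 0.05 for the fork genes. The smallest unadjusted p there was 0.00170, for Ccnb2.

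A list of 10 p53 target genes, which respond to the same damage signal downstream of ATM and CHK2, is given for comparison. It was chosen with earlier results of these data known, so its counts describe these 10 genes and are no independent support. All 10 rose in A/J, with a median of 0.46, and 2 rose in C3H, Psrc1 by 0.79 and Ccng1 by 0.24, with a median of 0.14. Psrc1, Phlda3, Ccng1 and Eda2r had A/J changes of 0.89, 0.52, 0.43 and 0.51. None of the 10 passed for the slope on Mki67 in limma, with a median slope of 0.10, and all 10 passed in A/J at equal Mki67, with a median of 0.43.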

How the data were processed

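The authors deposited PLIER intensities (linear, 1 value for each probe set of an array), for which the submitters' processing notes name Affymetrix Expression Console. Versions, normalization settings and the genome build are not given in the sources used here. The platform table gave 1 symbol to 21789 of 35556 probe sets, several to 1621 and none to 12146, and only the first were used. Median intensities of the arrays lay between 285 and 347, and precision is limited by having 2 arrays per group.

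The intensities were taken to log2(value + 16), quantile-normalized, and reduced to the probe set with the highest mean for each of 19938 genes. A filter at the 25th percentile of mean level left 14953 genes, which were tested with limma 3.58.1 in R 4.3.3, in 1 fit of 18 group means (18 residual degrees of freedom), with Benjamini-Hochberg adjustment over all tested genes at 0.05. A further fit took each array's Mki67 level as a covariate (17 residual degrees of freedom, Mki67 left out of the genes tested). Every adjusted p printed is from limma unless a permutation is named. Correlations with Mki67 used 2-sided permutation tests of 100000 resamples within each strain, adjusted over 16. The fits were tested on simulated arrays.

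Alternatives were the deposited scale, a pseudocount of 1, no filter or the 50th percentile, array weights, trended robust variances, a block for array number, fits on 1 strain's arrays, the mean of all probe sets, the mitosis genes as covariate, leaving out week 6 with 1 untreated array, and each array left out. The 8 genes and the lists were chosen with earlier results of these data known. Named were the 8 genes, Mki67, from each list up to 4 genes with the smallest p past the threshold or else at most 2 others, and the 3 genes most like each member. Bard1, Ube2t and Timeless lie outside this rule and were picked with their values in view.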

Additional observations from a re-analysis of the deposited data

Results flagged for a closer look

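Lig1 reached 9.07 in A/J NNK week 6 array 1, and its gap to the next of the 8 NNK-treated A/J arrays was 0.609 of the whole range, above Dixon's limit for 8 samples. Chance alone marks about 1 in 20 groups this way. The same array was highest in Mki67 and in the neutrophil and red cell precursor markers.

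The NNK change of Chek2 was larger in A/J than in C3H by 0.28 ± 0.07 at equal Mki67 (adjusted p = 0.0430), in a test of the difference itself that was added after seeing the data. Without Mki67 in the model the difference was 0.27 and did not pass (adjusted p = 0.152), and without the filter on dim genes it did not pass at equal Mki67 (adjusted p = 0.0613). The difference at equal Mki67 was not refitted without the week 6 arrays of A/J. Without week 6 in A/J, the Chek2 difference without Mki67 in the model was 0.15, and the A/J change of Chek2 at equal Mki67 was 0.14.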

How the results depend on the processing

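Brca2 and Chek2 stayed called in A/J under every setting that tested them other than those without week 6, and Lig1 was also lost with array weights (adjusted p = 0.0669) and on the A/J arrays alone (0.123). Of 1033 values of single genes under settings other than leaving out 1 array, 982 stayed on their side of the threshold, among them 21 uncalled values that changed sign, 47 lost their call, 4 gained one and 0 called values changed sign. The cause of these changes was not tested, except that the 50th percentile filter removes Brca2, Chek2 and Lig1 by construction. With 2 arrays per group and members near the dim end of the array, small differences are not resolved.

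Counts of called members, out of 3 for the NNK change in A/J, were 0 with the 50th percentile filter, 0 without week 6 and the untreated A/J week 0 array with skin genes, and 0 without week 6 in A/J. For the weekly changes in A/J (3) they were 0 with the 50th percentile filter, 1 on the A/J arrays alone, 0 without week 6 and the skin array, and 1 without week 6 in A/J, where Brca2 passed at week 9 (adjusted p = 0.0490). For untreated A/J minus C3H (2) they were 0 with the 50th percentile filter and 1 in each fit without week 6. The A/J week trend (0) gained 1 on the deposited scale.

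For the slope on Mki67 (3) the counts were 1 on the deposited scale, 5 without a filter, 0 with the 50th percentile filter, 0 on the A/J arrays alone, 0 on the C3H arrays alone, 0 without week 6 and the skin array and 0 without week 6 in A/J. For the A/J change at equal Mki67 (2) they were 1 on the deposited scale, 1 without a filter, 0 with the 50th percentile filter, 1 with trended robust variances, 0 with array weights, 0 on the A/J arrays alone, 1 with the mitosis genes as covariate, 0 without week 6 and the skin array and 0 without week 6 in A/J.

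Leaving out 1 array at a time, the counts of members ranged from 0 to 1 for the strain difference of the NNK change and for the A/J trend, 2 to 3 for the NNK change in A/J and for untreated A/J minus C3H, 0 to 2 for A/J at equal Mki67, and 0 to 3 for the slope and for the weekly A/J changes. The count of all genes changed in A/J ranged from 900 to 2963 in these fits, and that of the strain difference from 49 to 1080.

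Against 1502 genes changed in A/J, 675 passed with array weights, 483 on the A/J arrays alone, 492 without week 6 and the skin array and 661 without week 6 in A/J. The strain difference of the NNK change had 97 genes without a filter, 111 with array weights, 5 and 47 in the fits without week 6, against 169. The slope had 106 with the 50th percentile filter, 148 with array weights, 360 with the array number as a block, 68 and 38 on each strain's own arrays, 570 with the mitosis genes, and 52 and 71 without week 6, against 230. The week trend in A/J had 1845 on the deposited scale, 5280 without a filter, 2037 with the 50th percentile filter, 1678 with array weights, 1710 on its own arrays and 1415 without week 6 and the skin array, against 3410. That in C3H had 85 without a filter, 594 with array weights, 356 on its own arrays and 198 without week 6 in A/J, against 129. The weekly A/J changes had 698 with the 50th percentile filter, 592 with array weights, 197 on its own arrays, 199 and 393 without week 6, against 1382. In C3H, array weights gave 31 in place of 12 genes over the weeks and 141 in place of 16 by week, its own arrays 41 and 30, the fit without week 6 and the skin array 2 and 4, and the fit without week 6 in A/J 29 over the weeks. At equal Mki67 C3H had 2, 1 and 4 in the last 3 of these settings, against 11, and A/J had 248 with array weights, 167 on its own arrays and 351 without week 6 and the skin array, against 554.

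Between NNK and untreated groups of a strain and week, the deviations of arrays of one number had correlations from -0.20 to 0.22. The main fit pairs no samples by that number, and a batch shared by arrays of one number was not tested. With the array number as a replicate block 3 members passed for the NNK change in A/J, and of the members' calls only that of Lig1 at week 6 was lost (limma adjusted p = 0.0507).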
